A study of Mus musculus with 2 samples.

Results

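Axon guidance genes encode the secreted cues and the surface receptors with which growing nerve fibres find their path. The 10 genes described here are the netrin receptor genes Dcc, Neo1, Unc5c and Unc5d, the Slit ligand genes Slit2 and Slit3, the Slit receptor genes Robo1 and Robo2, and the semaphorin genes Sema3a and Sema5a. They were chosen by name with earlier results of these allele counts and distances in view, among them the count of a Sema5a window and the distance of an Unc5d window, so their allelic values, and the calls of the test over the whole table that fall on them, are given as a description and support nothing. A 50 kb window belonged to a gene if it overlapped the gene's RefSeq span on GRCm38, which gave 143 of the 43941 windows analysed. No window was shared between genes and none was missing within a span. A further 191 windows within 500 kb of the spans served as context.

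Netrins attract or repel axons. DCC and its relative neogenin (Neo1) mediate attraction, and UNC5 receptors turn the response to repulsion. Slit proteins repel axons through Robo receptors, also where fibres cross the midline, and semaphorins act through plexins, with neuropilins as co-receptors for secreted members such as Sema3a. These genes are known for their roles in the developing nervous system, and many of them are long genes in gene-poor DNA.

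Promoter contacts were measured in F121-6, a female hybrid line of mouse embryonic stem (ES) cells from a cross of 129 with Mus castaneus (Cas), grown with leukaemia inhibitory factor on mitomycin-C-inactivated embryonic fibroblasts. Promoter Capture Hi-C ligates crosslinked chromatin cut with HindIII and then enriches, with RNA baits, the products that hold a promoter. Both samples, labelled replicates 1 and 2, form 1 group of 1 cell line, and each allele has 1 pooled column, so no spread between replicates could be computed. The values are contacts and not expression, so the labelled cell type could not be checked against marker genes here.

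Over chromosomes 1 to 19 the counts summed to 50842396 on 129 and 37470557 on Cas, which put 57.57% of interactions on 129. The median window held 565 interactions on 129 and 405 on Cas. All count ratios below are log2 of 129 over Cas (1 added to each count), minus 0.45, the median of all windows, so a value above 0 means relatively more contacts on 129. Intervals of the 129 share are exact Clopper-Pearson 95% intervals, which cover counting error only, and PCR copies are not independent molecules. Windows and genes were called with a beta-binomial test, which allows for the spread between windows (SD 6.35 percentage points of the 129 share), at a Benjamini-Hochberg adjusted p of 0.05.

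Along most of the 10 genes the alleles were close to the genome-wide balance, and Sema5a, Unc5c and Unc5d held the widest departures or the clearest changes in contact distance. The 143 windows summed to 71775 interactions on 129 and 57154 on Cas, or 55.7% on 129. Their median count ratio was -0.08 (quartiles -0.30 and 0.14), beside 0 for all windows (quartiles -0.19 and 0.23). The SD of the ratio was 0.47 over the members' windows and 0.46 over all windows. The beta-binomial test called 1 member window higher on 129, in Unc5d, where 0.727% of all tested windows were called, and 1 higher on Cas, in Sema5a, where 0.217% were called. An exact binomial test, which covers counting error only, called 65 of the 143 windows in either direction, where it called 51.4% of all windows. A ratio of 2-fold or more was seen towards 129 in 1 window (2.40% of all windows) and towards Cas in 3 (0.923% of all windows). Because the genes were chosen on these counts, nothing is read from the comparison of these shares.

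**Figure D1:**
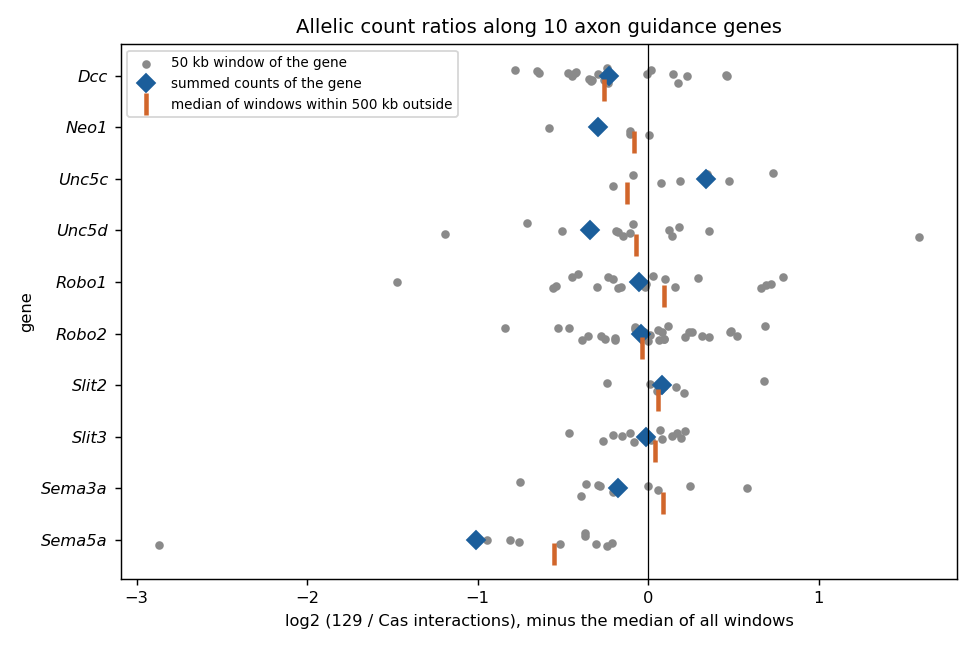
Count ratio of each 50 kb window of the 10 genes (grey points), of each gene's summed counts (blue diamonds) and the median of the windows within 500 kb outside the gene (orange ticks), on a log2 scale centred on the median of all windows. Sema5a lies furthest towards Cas, with every window below 0 and 1 window at -2.87, and Unc5d reaches from -1.19 to 1.59.

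The density of contacts differed between the genes. Per window of 50 kb, with both alleles added, Neo1 had 2698 interactions, Slit3 had 2032 and Unc5c had 1904. Slit2 followed with 1133, Sema5a with 1040 and Sema3a with 898. The lowest were Robo2 with 678, Dcc with 506, Robo1 with 411 and Unc5d with 401. Without separate replicates, neighbours in this order, such as Robo1 and Unc5d, could be compared only by counting error.

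The windows that hold annotated transcription starts stood out in most genes. The RefSeq promoter table (GRCm38.p6, 250 bases before to 50 bases after a start) has 10 starts for 8 of the genes. At 9 of the 10 starts the start window held more interactions than the median of the gene's other windows on both alleles, and at 4 it ranked first in its gene on both. The exception was the middle start of Robo2. Of the 9, the Sema3a start was nearly level on 129, at 278 against 277. The Robo2 start at the highest coordinate had 340 against 280 on 129, and ranked 10 on 129 and 7 on Cas among 32 windows. Because the capture enriches promoters, nothing is read from this count, and the share over all promoters was not computed. The promoters differ in CpG dinucleotides, and 6 are shown because they set the most CpG-rich start (Neo1), the 2 semaphorins and the 3 Robo2 starts beside each other. CpG dinucleotides are in capitals, and each sequence runs 5′ to 3′ on the strand of its gene.
Neo1 promoter, chr9:59036392-59036691, minus strand: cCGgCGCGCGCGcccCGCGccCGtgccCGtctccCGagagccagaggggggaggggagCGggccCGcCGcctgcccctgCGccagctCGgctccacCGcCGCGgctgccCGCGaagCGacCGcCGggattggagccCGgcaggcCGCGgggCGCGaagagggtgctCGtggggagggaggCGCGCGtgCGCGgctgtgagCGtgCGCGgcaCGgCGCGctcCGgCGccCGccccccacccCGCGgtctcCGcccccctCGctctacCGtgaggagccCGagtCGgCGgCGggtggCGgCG
Sema5a promoter, chr15:32244563-32244862, plus strand: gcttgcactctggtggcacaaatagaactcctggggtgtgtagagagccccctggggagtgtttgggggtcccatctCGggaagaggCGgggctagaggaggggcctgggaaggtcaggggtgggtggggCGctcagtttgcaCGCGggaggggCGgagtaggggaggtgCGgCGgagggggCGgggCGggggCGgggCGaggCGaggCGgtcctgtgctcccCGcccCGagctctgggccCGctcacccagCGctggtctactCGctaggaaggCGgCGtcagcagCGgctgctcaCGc
Sema3a promoter, chr5:13396534-13396833, plus strand: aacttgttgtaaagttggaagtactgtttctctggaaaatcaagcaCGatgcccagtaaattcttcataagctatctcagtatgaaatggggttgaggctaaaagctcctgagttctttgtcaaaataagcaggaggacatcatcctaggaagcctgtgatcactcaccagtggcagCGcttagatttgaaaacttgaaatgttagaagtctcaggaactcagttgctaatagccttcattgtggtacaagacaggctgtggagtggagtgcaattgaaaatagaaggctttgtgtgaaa
Robo2 promoter at the lowest coordinate, chr16:74411776-74412075, minus strand: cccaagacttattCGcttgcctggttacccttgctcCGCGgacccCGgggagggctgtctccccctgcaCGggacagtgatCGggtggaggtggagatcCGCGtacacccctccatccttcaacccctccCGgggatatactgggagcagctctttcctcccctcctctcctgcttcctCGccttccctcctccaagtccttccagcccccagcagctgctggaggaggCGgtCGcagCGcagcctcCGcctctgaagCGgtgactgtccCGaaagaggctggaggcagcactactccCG
Robo2 middle promoter, chr16:75092721-75093020, minus strand: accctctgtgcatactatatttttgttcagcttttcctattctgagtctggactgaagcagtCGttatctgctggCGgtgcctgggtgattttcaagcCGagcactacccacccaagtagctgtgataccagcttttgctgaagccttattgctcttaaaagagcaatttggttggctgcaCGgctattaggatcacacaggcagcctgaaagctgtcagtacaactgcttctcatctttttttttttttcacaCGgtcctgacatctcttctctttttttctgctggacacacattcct
Robo2 promoter at the highest coordinate, chr16:75447244-75447543, minus strand: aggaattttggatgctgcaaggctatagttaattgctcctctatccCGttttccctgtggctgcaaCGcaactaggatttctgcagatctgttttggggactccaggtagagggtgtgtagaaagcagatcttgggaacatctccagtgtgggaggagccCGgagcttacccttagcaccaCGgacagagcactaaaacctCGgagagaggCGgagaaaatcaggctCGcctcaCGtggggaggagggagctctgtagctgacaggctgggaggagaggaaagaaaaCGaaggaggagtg

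The Neo1 promoter holds 54 CpG, and its window had 2274 interactions on 129 and 2490 on Cas. Slit3, with 41 CpG, had 4142 interactions on 129 and 3254 on Cas in its start window, the highest of the 10. Slit2, with 30 CpG, had 1576 on 129 and 1141 on Cas. These CpG-rich starts all lay in windows with more than 1000 interactions on each allele, as did Unc5c, with 24 CpG, and Sema5a, with 23. Unc5c had 2168 on 129 and 1688 on Cas in its start window, and Sema5a had 1904 on 129 and 1722 on Cas. The Sema5a start window also holds Snhg18 and Snord123. Robo1, with 15 CpG, had 815 on 129 and 791 on Cas.

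The 3 Robo2 promoters hold 17, 5 and 9 CpG from the lowest to the highest coordinate. Their windows had 2088, 270 and 340 interactions on 129, and 1852, 122 and 317 on Cas. The Robo2 start with the most CpG was therefore also the one with the most contacts. The listed Sema3a start, with 2 CpG, lies inside the gene and not at the 5′ end of its RefSeq span. Its window had 278 interactions on 129 and 262 on Cas. These were close to the medians of 277 on 129 and 223.5 on Cas in the gene's other windows. Over the 10 starts, which share the libraries and in Robo2 a gene, the CpG count and the summed interactions had a Spearman correlation of 0.87. Pearson's correlation with log2 of the summed count was 0.82. Neither was computed over all promoters. Dcc, Unc5d and the contact peak of Sema3a are not among these starts, because no start is listed there.

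Over all 32851 promoters of the table, the median was 7 CpG (quartiles 3 and 20). The GC box GGGCGG, searched on both strands and counted where its letters occur, was present in 4 of the 10 promoters (Neo1, Slit2, Slit3 and Sema5a) and in 35.7% of all promoters. The HindIII site AAGCTT, at which the chromatin was cut, was in none of the 10 and in 7.45% of all. Start windows leaned to Cas in 8 of 10 cases, from -0.58 in Neo1 to -0.09 in Unc5c, while Slit2 stood at 0.01 and the middle Robo2 start at 0.69. Over their summed windows, 10633 of 18479 protein-coding loci were below 0, and the share over all start windows was not computed. The sources used here do not list the bait of each promoter, so its part in the counts of the start windows was not tested.

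**Figure D2:**
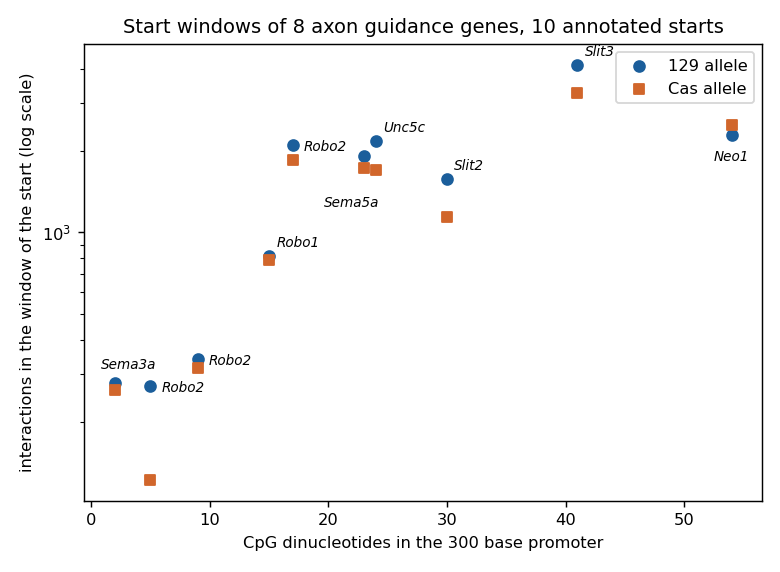
Interactions in the 50 kb window of each annotated start on 129 (blue circles) and Cas (orange squares), on a log scale, against the number of CpG dinucleotides in its 300 base promoter. The starts with 17 or more CpG lie above 1000 interactions on both alleles, and those with 2 to 9 CpG lie below 400.

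Among the netrin receptors, Unc5c had relatively more contacts on 129 and the other 3 had relatively more on Cas. Unc5c (chromosome 3, 141465564 to 141834924, 8 windows) summed to 9656 interactions on 129 and 5573 on Cas. Its 129 share was 63.4% (62.6 to 64.2%) and its ratio 0.34. Dcc (chromosome 18, 71253613 to 72351228, 23 windows) had 6267 on 129 against 5375 on Cas, a share of 53.8% (52.9 to 54.7%) and a ratio of -0.23. Neo1 (chromosome 9, 58874679 to 59036614, 4 windows) had 5691 on 129 against 5102 on Cas, a share of 52.7% (51.8 to 53.7%) and a ratio of -0.29. Unc5d (chromosome 8, 28646717 to 29219671, 13 windows) had 2706 on 129 against 2506 on Cas, a share of 51.9% (50.6 to 53.3%) and a ratio of -0.34.

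Unc5c had 2 contact peaks that behaved differently. Its start window was near balance, with a ratio of -0.09. The second peak, chr3:141650001-141700000 inside the gene, held 4442 interactions on 129 against 1953 on Cas, a share of 69.5% (68.3 to 70.6%) and a ratio of 0.73. Besides Unc5c, the annotation places only unnamed long noncoding RNA models there. This window was not called. Without it the ratio of the gene's summed counts was 0.07, a sum in which the near-balanced start window had the largest counts. The lean towards 129 was not confined to the peak: 6 of the 8 windows lay above 0, and the median of the window ratios was 0.27. The contacts of the peak window itself were short on both alleles, at 27 kb on 129 against 22 kb on Cas.

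From the start window to just past that peak, contact distances in Unc5c converged on it on 129 but not on Cas. From the start window towards the peak, the distances on 129 were 224, 178, 123 and 72 kb. On Cas the same windows had 255, 329, 799 and 1026 kb. Just past the peak the distance was 58 kb on 129 against 684 kb on Cas. In 5 of the 7 other windows of the gene the 129 distance came within 50 kb of the gap to the peak window, and in none did the Cas distance. On Cas the start window missed this limit narrowly, at 55 kb from its gap. Farther past the peak the 129 distances were 380.5 and 558 kb, at gaps of 100 and 150 kb. Measured to the gene's own highest window, Dcc, Neo1, Unc5d and Robo1 had no such window on either allele. Robo2 had 5 on 129 and 7 on Cas of 31. Slit2 and Slit3 each had 2 on 129 and 1 on Cas, and Sema3a had 2 on Cas only. This comparison of distance and gap was made after the profile was seen and has no test.

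Unc5d had its few contacts at long range on both alleles, except at its high-coordinate end. The window chr8:29200001-29250000, which overlaps the gene by 19671 bp, held 599 interactions on 129 against 1000 on Cas, a 129 share of 37.5% (35.1 to 39.9%) and a ratio of -1.19. Its contact distance was 1879 kb on 129 against 28 kb on Cas. At the other end, the window chr8:28600001-28650000 held 238 on 129 against 57 on Cas, a share of 80.7% (75.7 to 85.0%) and a ratio of 1.59. It overlaps the gene by 3284 bp and was the window called higher on 129. The call was lost with an overdispersion per quartile of the count and at a threshold of 0.01, and the window drops out when its middle must lie in the gene. The 11 windows between them ranged from 103 to 311 interactions on 129 and from 80 to 186 on Cas, and the median distance of the gene was 6129 kb on 129 against 5912 kb on Cas. Without the Cas-rich end window the ratio of Unc5d was 0.032, and without the 129-rich end window it was -0.44. Without both, when only windows whose middle lies in the gene were kept, it was -0.09.

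Dcc, the largest of the 4 netrin receptor loci, was lower on 129 relative to the genome in most of its length without an outstanding window. The ratio was below 0 in 17 of its 23 windows and lay between -0.78 and 0.46. The contacts gathered at the high-coordinate end. The window chr18:72300001-72350000 had 1197 on 129 and 1031 on Cas. The next, which overlaps the gene by only 1228 bp, had 732 on 129 and 638 on Cas. The remaining windows held 119 to 384 interactions on 129 and 87 to 376 on Cas. In the 20 flank windows of Dcc the median ratio was -0.26, the same as over its own windows. Flank distances were at least 2-fold longer on 129 in 8 of them and in none on Cas.

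Neo1 is a compact gene whose allelic shift sat at its start. The start window had a 129 share of 47.7% (46.3 to 49.2%) and a ratio of -0.58. Its distance was 182 kb on 129 against 141 kb on Cas. The other 3 windows held 1316, 810 and 1291 interactions on 129 and 959, 637 and 1016 on Cas, with ratios of 0.00, -0.11 and -0.11. Without the start window the ratio of the gene was -0.06. Distances were longer on 129 in all 4 windows, by less than 2-fold.

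**Figure D3:**
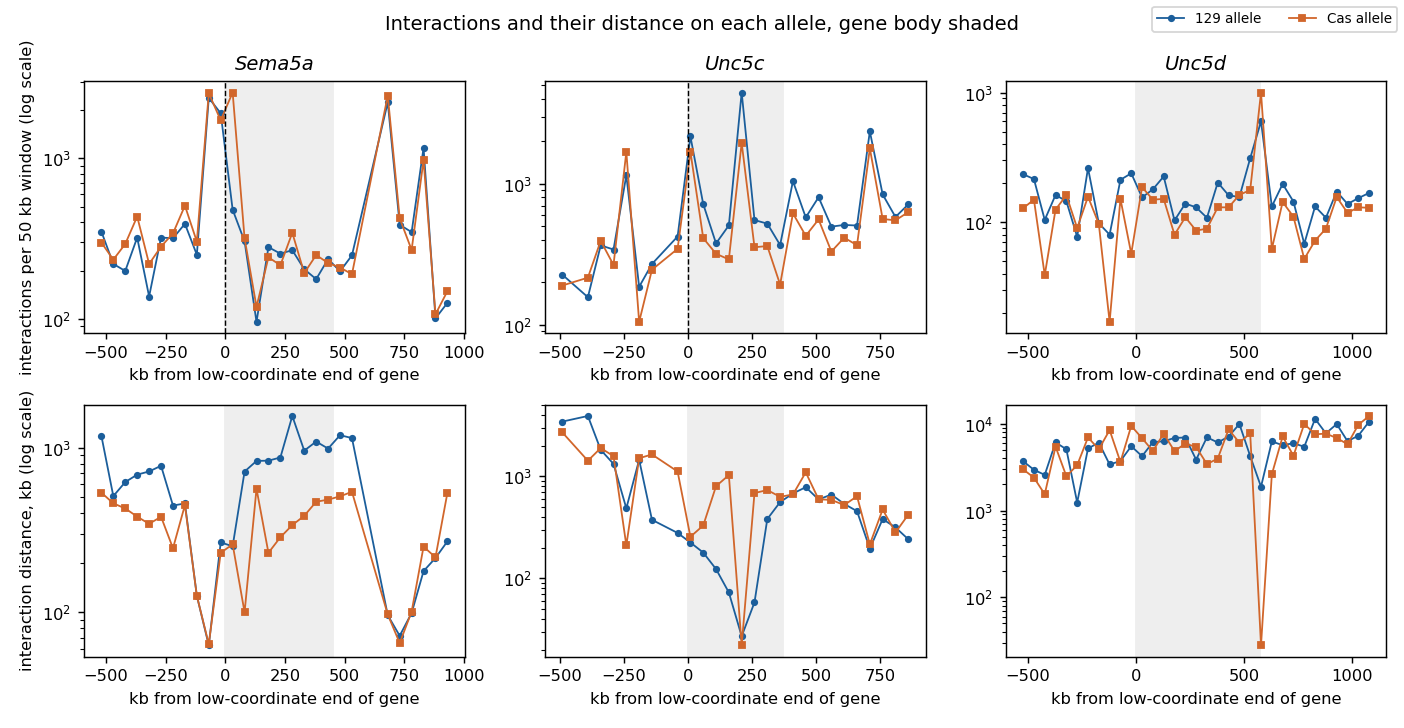
Interactions per 50 kb window (upper panels) and interaction distance in kb (lower panels), both on log scales, along Sema5a, Unc5c and Unc5d and 500 kb either side, for 129 (blue circles) and Cas (orange squares), with the gene shaded and the annotated start dashed where one is listed. In Sema5a most Cas distances fall towards the low-coordinate end of the gene and the 129 distances are 717 kb or more from the third window of the gene on. In Unc5c the 129 distances fall to the peak inside the gene.

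The Slit ligand genes were close to the genome-wide balance. Slit2 (chromosome 5, 47981291 to 48307735, 8 windows) summed to 5362 interactions on 129 against 3698 on Cas, a 129 share of 59.2% (58.2 to 60.2%) and a ratio of 0.08. Slit3 (chromosome 11, 35121456 to 35708507, 13 windows) had 15206 on 129 against 11208 on Cas, a share of 57.6% (57.0 to 58.2%) and a ratio of -0.01. Both genes had a second contact peak inside the gene, in the window that holds a copy of the microRNA miR-218. Both copies encode the same mature strand, and miR-218 is known to repress Robo1 and Robo2, the receptors of the proteins its host genes encode. The mature strands, from RefSeq on GRCm38.p6, have the seed (bases 2 to 8) in capitals.
mmu-miR-218-5p, Mir218-1 in Slit2 at chr5:48223966-48223986 and Mir218-2 in Slit3 at chr11:35616840-35616860, both plus strand: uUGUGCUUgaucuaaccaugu
mmu-miR-218-1-3p, Slit2 copy: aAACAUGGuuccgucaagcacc
mmu-miR-218-2-3p, Slit3 copy: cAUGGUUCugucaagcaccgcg
The 5p strand has the seed UGUGCUU in both copies, and the 3p strands have different seeds.

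The Mir218-1 window of Slit2 had 1675 interactions on 129 and 1146 on Cas, slightly above the start window of the gene on both alleles. Its distance was 91 kb on 129 against 83 kb on Cas. The other windows of Slit2 apart from these peaks held 283 to 429 interactions on 129 and 135 to 299 on Cas. The Mir218-2 window of Slit3 had 3091 on 129 and 2052 on Cas, second in the gene after the start window. Its distance was 133 kb on 129 against 86.5 kb on Cas. The ratios of the Mir218 windows were 0.09 in Slit2 and 0.14 in Slit3, so both peaks were present on both alleles.

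The alleles of Slit2 differed in distance at the end of the gene. Past the Mir218-1 window, the last window of Slit2 (chr5:48300001-48350000) had a distance of 114 kb on 129 against 1473 kb on Cas. Its count was 311 on 129 and 196 on Cas. It overlaps the gene by only 7735 bp, so most of it lies outside Slit2. In Slit3 the distances of the body were similar, at a median of 484 kb on 129 against 553 kb on Cas, and 1 window was at least 2-fold apart.

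The Robo receptor genes, neighbours on chromosome 16, were also near balance over their summed counts. Robo1 (72027518 to 73047491, 21 windows) had 4904 interactions on 129 against 3717 on Cas, a 129 share of 56.9% (55.8 to 57.9%) and a ratio of -0.05. Robo2 (73891976 to 75447443, 32 windows) had 12374 on 129 against 9310 on Cas, a share of 57.1% (56.4 to 57.7%) and a ratio of -0.04. Windows above and below 0 numbered 8 and 13 in Robo1, and 16 and 16 in Robo2. The sign of the Robo2 ratio turned to 0.01 when the median of its windows was used.

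Robo1 had a single peak, at its listed start well inside the RefSeq span. That window (chr16:72650001-72700000) had a ratio of -0.41 and a distance of 741.5 kb on 129 against 752 kb on Cas. Elsewhere in Robo1 contacts were sparse and far, with a median distance of 11846 kb on 129 against 12443.5 kb on Cas. Over all windows of the gene the medians were 10730 kb on 129 against 12092 kb on Cas, the longest of the 10 genes on both alleles. The lowest ratio, -1.47, came from 38 interactions on 129 against 78 on Cas, a share of 32.8% (24.3 to 42.1%). It was not called.

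**Figure D4:**
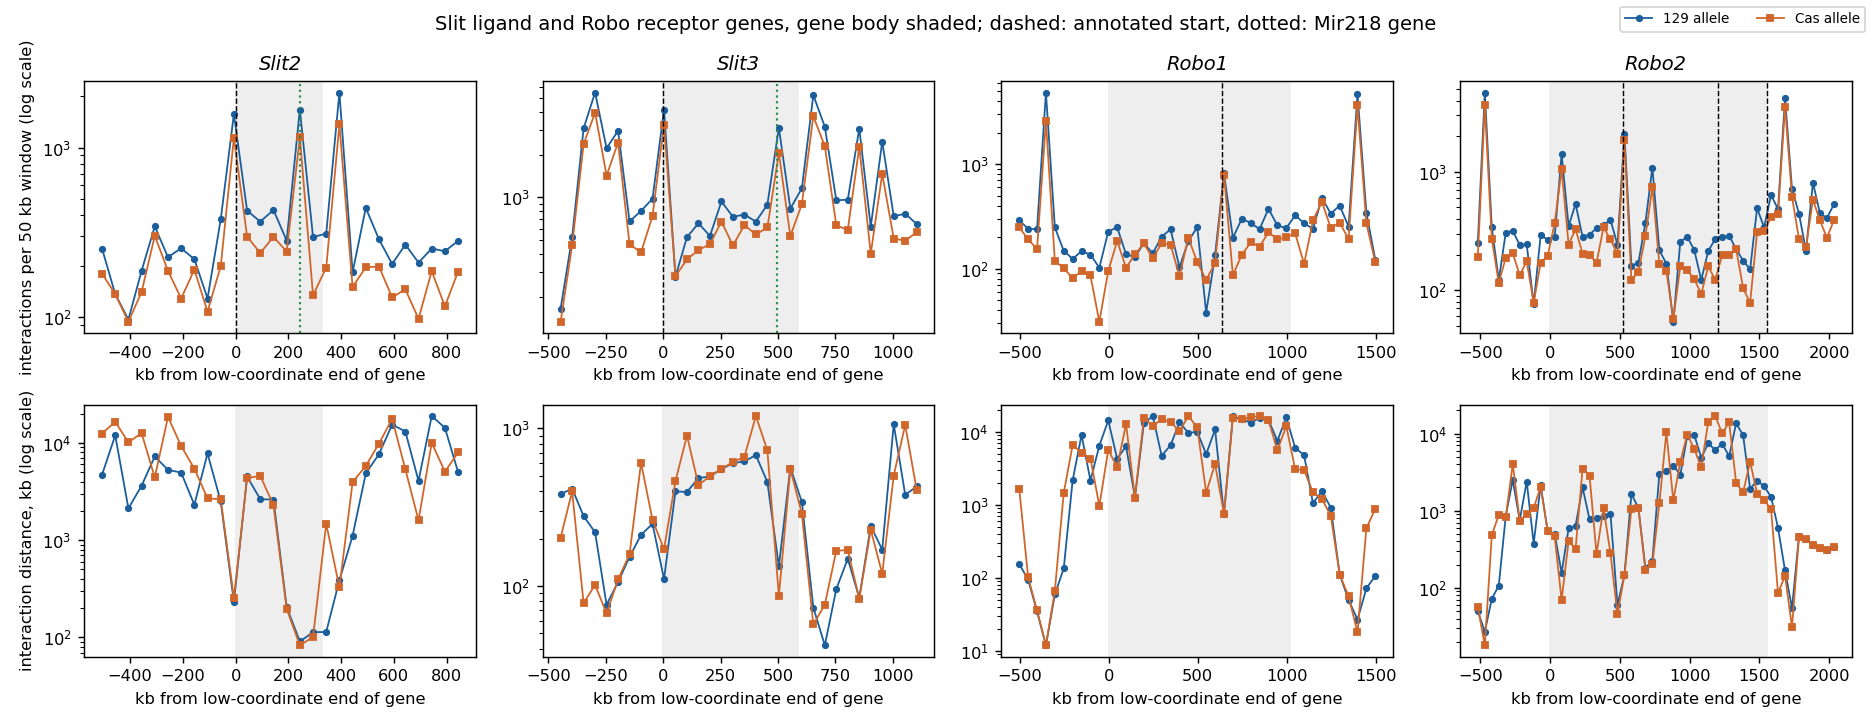
Interactions per 50 kb window (upper panels) and distance in kb (lower panels), on log scales, along Slit2, Slit3, Robo1 and Robo2 and 500 kb either side, for 129 (blue circles) and Cas (orange squares), with gene bodies shaded, annotated starts dashed and Mir218 genes dotted. Peaks lie at the same windows on both alleles, and the count lines of 129 and Cas run close together in Slit3 and at the peaks of Robo2. The distance at the Robo2 peak chr16:73950001-74000000 was 156 kb on 129 against 69 kb on Cas.

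Robo2 had 3 peaks with matching positions on both alleles. The start window at the lowest coordinate had a ratio of -0.28 and a distance of 147 kb on each allele. The peak chr16:73950001-74000000 had 1415 interactions on 129 and 1048 on Cas, and the peak chr16:74600001-74650000 had 1085 on 129 and 743 on Cas, with ratios of -0.02 and 0.09. At chr16:73950001-74000000 the distance was 156 kb on 129 against 69 kb on Cas. At chr16:74600001-74650000 it was 224 kb on 129 against 203.5 kb on Cas. The middle start window was the highest ratio of the gene, 0.69, from 270 interactions on 129 and 122 on Cas, at distances of 6130 kb on 129 against 16869 kb on Cas. Robo2 also hosts Mir691, a microRNA gene whose window held 393 interactions on 129 and 269 on Cas. In Robo2 the 129 distance was at least 2-fold the longer in 8 windows, and the Cas distance in 5.

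The 2 semaphorin genes differed from each other. Sema5a, a transmembrane semaphorin, had the lowest ratio of the 10 genes, and Sema3a, a secreted one, was only slightly below 0. Sema5a (chromosome 15, 32244813 to 32696341, 10 windows) summed to 4203 interactions on 129 against 6193 on Cas, a 129 share of 40.4% (39.5 to 41.4%) and a ratio of -1.01. This was place 115 from the lowest of 18479 protein-coding loci. Sema3a (chromosome 5, 13124822 to 13603485, 11 windows) had 5406 on 129 against 4472 on Cas, a share of 54.7% (53.7 to 55.7%) and a ratio of -0.18.

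The count difference of Sema5a was concentrated in the first window past its start. The start window, in which the start lies 5.19 kb from the high edge, had a ratio of -0.31. It also holds Snhg18 and Snord123, so its contacts cannot be assigned to Sema5a alone. The next window (chr15:32250001-32300000) held 479 interactions on 129 against 2566 on Cas, a 129 share of 15.7% (14.5 to 17.1%) and a ratio of -2.87, and was the window called higher on Cas. Its distance was nearly the same on both alleles, 252 kb on 129 against 259 kb on Cas. Without this window the ratio of Sema5a was -0.41. All 10 windows of the gene lay below 0, and so did all 18 flank windows, with a flank median of -0.55. The flank of Sema5a was the lowest of the 10, beside a median of -0.06 for chromosome 15 as a whole.

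In the body of Sema5a the count ratios were closer to 0, from -0.95 to -0.21, and the distances differed more. From the third window of the gene to the last, the counts ran from 96 to 304 on 129 and from 119 to 344 on Cas. The distances of these 8 windows in order were 717, 832, 835.5, 873, 1561, 961, 1091 and 989 kb on 129. On Cas they were 100, 564, 230, 286, 339, 386, 470 and 484 kb. Over the 9 windows past the start window, the Cas distance was within 50 kb of the gap to the start window in 6, and the 129 distance in none. In the 8 body windows the 129 distance exceeded that gap by 539 to 1261 kb. Distances were at least 2-fold longer on 129 in 7 of the 10 windows of Sema5a and on Cas in none. In its flanks they were so on 129 in 5 of 18 windows and on Cas in none. As in Unc5c, the comparison of distance and gap was made after the profile was seen, and the sources used here do not name the partner windows. The flank window next to the start window, chr15:32150001-32200000, held more interactions than it, 2377 on 129 and 2541 on Cas. The gap to that flank window was not compared, so the match does not single out the start window.

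Sema3a had its peak at the low-coordinate end of the span and not at its listed start. The gene lies on the plus strand, so that end is the 5′ end of its RefSeq span, where no start is listed. The listed start, at 13396784, lies inside the gene. The window chr5:13100001-13150000 held 2659 interactions on 129 and 2242 on Cas, which was 49.2% of the gene's interactions on 129 and 50.1% on Cas. Its distance was 36 kb on 129 against 25.5 kb on Cas. The other windows held 178 to 362 on 129 and 105 to 298 on Cas, with ratios from -0.75 to 0.58. In the low-side flank of Sema3a, the window chr5:13000001-13050000 held 262 on 129 against 48 on Cas, a share of 84.5% (80.0 to 88.4%). It has no protein-coding gene and was the only flank window of the 10 genes that the beta-binomial test called.

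Contact distances varied widely between the 10 genes. The median over their windows was 1848 kb on 129 against 1359 kb on Cas, beside 350 kb on 129 against 347 kb on Cas over all windows. Dcc, Unc5d, Robo1 and Robo2, which hold most of the windows, had medians above 1000 kb on both alleles. On 129 the medians of Unc5c (150.75 kb), Slit2 (217.5 kb) and Neo1 (334.25 kb) were below that of all windows, and on Cas those of Neo1 (294 kb) and Sema5a (312.5 kb). Distances were at least 2-fold longer on 129 in 24 of the 143 windows (16.8%), where the share of all windows was 8.37%. They were at least 2-fold longer on Cas in 16 windows (11.2%), where the share of all windows was 8.73%. Sparse windows differ in distance more often. Among windows with fewer than 1000 interactions, 12.7% of all were at least 2-fold longer on 129 and 12.8% on Cas. Of the 113 such windows of the 10 genes, 22 (19.5%) were longer on 129 and 16 (14.2%) on Cas. The distances have 1 value per allele and no test, and the genes were chosen with some of these distances known, so nothing is read from these shares.

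Outside the genes, flank medians lay between -0.12 and 0.09 for 8 of the 10 genes, the exceptions being Dcc at -0.26 and Sema5a at -0.55. Unc5c, with a ratio of 0.34, had a flank median of -0.12. Unc5d and Neo1 had flank medians of -0.07 and -0.08, nearer to 0 than their own ratios of -0.34 and -0.29. On the low and the high side the flank medians were -0.64 and -0.53 at Sema5a, and -0.16 and -0.56 at Dcc. A median near 0 can hide sides that differ. The low and high sides were 0.43 and -0.23 at Sema3a, and -0.19 and 0.18 at Slit2.

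None of the 10 genes was called over its summed counts by the beta-binomial test, where 1.01% of protein-coding loci were called higher on 129 and 0.341% higher on Cas. Of the 10, 1 had an unadjusted p under 0.05, where 5.59% of protein-coding loci did. The exact binomial test called 7, of which 2 leaned to 129 and 5 to Cas, where it called 66.9% of these loci. A list of 69 other axon guidance genes was set beside them, of which 62 had windows in the table. None of the 62 was called by the beta-binomial test in either direction, 3 had an unadjusted p under 0.05 (5.59% of all protein-coding loci), and the exact binomial test called 39 (66.9% of all). Their median ratio was -0.03, beside -0.04 over all protein-coding loci and -0.12 over the 10 genes.

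Within that list, the netrin family and its partners ranged from Ntng2 at -0.33 to Ntng1 at 0.96, both genes of netrin G proteins, which are anchored to the membrane. Ntng1 had 8347 interactions on 129 and 3134 on Cas. Slit and Robo partners ranged from Srgap2 at -0.21 to Srgap1 at 0.33, which encode GTPase-activating proteins that bind Robo. The other semaphorins ranged from Sema3b at -0.43 to Sema5b, the closest relative of Sema5a, at 0.40. Plexins and neuropilins ranged from Plxnd1 at -0.29 to Plxnc1 at 0.71. Ephrins and Eph receptors, a separate guidance family that acts by cell contact, ranged from Epha2 at -0.46 to Ephb3 at 0.41. No locus of the list lay as far towards Cas as Sema5a.

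The spread of ratios along 1 gene was widest in Unc5d, Sema5a and Robo1. From lowest to highest window it was 2.78 in Unc5d, 2.66 in Sema5a and 2.26 in Robo1, beside a median of 0.72 over 1035 protein-coding genes with 5 or more windows. Wider spans were found in 8 of these genes for Unc5d, in 10 for Sema5a and in 25 for Robo1. The Sema5a span is set by its window at -2.87, and a Sema5a window count was known when the genes were chosen. The highest Unc5d window overlaps the gene by 3284 bp and held 57 interactions on Cas. The lowest Robo1 window held 38 on 129 and 78 on Cas. Nothing is therefore read from these ranks. The genes nearest to Unc5d in span were Agbl4 with 2.69, Sema5a, and Lrp1b with 2.63. Those nearest to Sema5a were Lrp1b, Maml3 with 2.62 and Csmd1 with 2.62. Slit3 and Neo1 had spans of 0.68 and 0.59, below that median.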

How the data were processed

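Promoter Capture Hi-C was done by the submitters on F121-6 ES cells in 2 samples. The authors deposited whole-number interaction counts per allele for each 50 kb window, without normalisation, and an interaction distance per allele, per the file headers. The distances were taken to be in bp; the sources used here do not name the statistic. All were multiples of 500 bp and 80.1% of 1000 bp, a pattern that medians of distances in whole kb give and means would not. The submitters' processing notes name Bowtie2 and mm10. The sources used here do not say how reads were assigned to alleles, filtered and merged. Losing Cas reads that differ from the reference at the mapping step would put the 129 share too high throughout. The labels of both samples name the same columns, and a column was therefore treated as pooled over the group. The labels do not say that the replicates were separate cultures.

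The members and lists were chosen with earlier results of these data known. Counts were tested over all windows that held at least 10 interactions, and over all protein-coding loci, with a two-sided beta-binomial test against the 129 share of all windows or of all these loci, with 1 overdispersion (0.0165 for windows, 0.0110 for loci) and Benjamini-Hochberg adjustment at 0.05. Window ratios used a pseudocount of 1. Distances were compared as log2 ratios where each allele had 10 or more interactions. Genes were placed by RefSeq positions on GRCm38.p6. The windows that could be named for a gene were its start window and those with the highest and lowest ratio or the highest count. Called windows and the window with the largest distance ratio could be named too. Not all of them were named, among these the largest distance ratios of Robo2, Sema3a, Dcc and Slit3. The Mir218 and Mir691 windows, the body windows of Sema5a and Unc5c, the second peaks and the distance limit of 1000 interactions were chosen after values were seen. In the list of other guidance genes, each called locus and the lowest and highest of each family are named. Dcc and Unc5d have no start or promoter shown. The test was tested on simulated data at the observed overdispersion: it recovered 0% of windows changed 1.5-fold, 4% at 2-fold and 72% at 4-fold. Alternatives were other tests, null shares, count minimums, centres, pseudocounts, window rules and flank widths. Tests were run with scipy 1.17.1 on Python 3.11.15, tables handled with pandas 2.3.3 and numpy 2.4.6, and plots drawn with matplotlib 3.10.9.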

Additional observations from a re-analysis of the deposited data

How the results depend on the processing

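The called windows of the 10 genes numbered 2. They numbered 65 with the exact binomial test (24 towards 129 and 41 towards Cas), and 1 with an overdispersion per quartile of the count, with a threshold of 0.01, with windows whose middle lies in the gene, or, chosen after seeing the data, without Sema5a. Calls among the other guidance genes numbered 0, against 39 with the exact binomial test and 1 (Ntng1, towards 129) in start windows. Over all windows the calls numbered 413, and over all protein-coding loci 250, against 12365 with the exact binomial test. Of the 10 loci, 8 were below 0, where 10633 of all 18479 protein-coding loci were. The number was 6 to 8 under the 5 alternatives, of which leaving out the window with the largest absolute ratio was added after seeing the data. The sign changed for Robo2 in 1 and for Slit3 in 2 of these. The ratio of Sema5a lay between -1.41 and -0.41, that of Unc5c between 0.07 and 0.34, that of Unc5d between -0.44 and 0.032 (the highest without its window at the high-coordinate end, added after seeing the data) and that of Neo1 between -0.30 and -0.06. The flank median of Sema5a was -0.55 within 250 kb and -0.54 within 1 Mb. Windows 2-fold apart in distance numbered 40, and 37 to 40 under the alternatives. No paired analysis was possible because there is 1 group and the columns carry no replicate, and for the same reason no replicate could be left out. The beta-binomial test recovered few changes of 2-fold, so a window or locus that was not called may still differ by that much.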
